A study of Mus musculus with 12 samples.

Results

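The genes described here encode components and regulators of the complement system: C1qa, C1qb and C1qc, C4b, C3, Cfb, Serping1, C3ar1 and C5ar1. They were taken by symbol from the deposited table of retinal RNA-seq values, in which all 9 had a row among 24340 rows, and all 9 were above 0 in every library. The libraries came from both retinas of 6 p16-3MR mice aged 12 to 16 weeks. In each mouse the intraocular pressure (IOP) of one eye was held at 85 to 90 mm Hg for 60 min, the fellow eye served as the control, and both retinas were taken on day 3. Mice 1, 2 and 5 were injected with ganciclovir (GCV, 25 mg/kg each day) and mice 3, 4 and 6 with PBS, which gave 4 groups of 3 retinas: control, IOP, control with GCV, and IOP with GCV. All groups, PBS groups included, carry the 3MR transgene, a fusion of Renilla luciferase, a red fluorescent protein and a herpesvirus thymidine kinase driven by the regulatory region of p16Ink4a, and the kinase makes GCV toxic to the cells that express it. Every control retina is thus the other eye of an operated mouse, and no wild-type retina is part of the comparison.

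Complement is a set of secreted proteins that tag and open the membranes of targets. In the classical pathway the C1q complex, built from the products of C1qa, C1qb and C1qc, binds a surface and activates proteases that cleave C4 and C2, and these fragments form an enzyme that cleaves C3. In the alternative pathway factor B, the product of Cfb, joins cleaved C3 and amplifies the cleavage. The C1 inhibitor, the product of Serping1, blocks the proteases of C1. The small fragments shed from C3 and C5 signal through the receptors C3ar1 and C5ar1 on myeloid cells. In the nervous system microglia are the main source of C1q, and complement tagging of synapses is best known from the pruning of retinal inputs during development.

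The values were taken as FPKM, fragments per kilobase of transcript relative to the size of the library. This unit was inferred from the values, and whether they were scaled further between libraries is not stated. By steps in the low values, the control eyes held an estimated 7830000 to 9020000 fragments without GCV and 6860000 to 7620000 with it, and the IOP-treated eyes 3980000 to 8650000 and 6860000 to 8680000. Mouse 6 had the shallowest library, from its IOP-treated eye, with 14842 genes detected where all others had 16042 to 16591. Cdkn2a, the gene that encodes p16Ink4a, lay between 0 and 0.601 FPKM and was not called in the comparison over the 6 mice (log2 fold change -0.03, limma adjusted p = 0.905). Markers of retinal neurons were abundant in every library, with a summed level of 18530 to 34280 FPKM over 11 genes. Lens crystallins and other lens markers stood apart in several libraries and are given beside the results below.

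The 3 C1q genes lie next to each other on chromosome 4 in GRCm38 (mm10), C1qb at chr4:136880126-136886200, C1qc at chr4:136889801-136892936 and C1qa at chr4:136895916-136898844, each with 3 exons. On chromosome 17, C4b (chr17:34728139-34743902), its paralog C4a (chr17:34809092-34823460) and Cfb (chr17:34856374-34862514) share a stretch of the major histocompatibility region with C2 (chr17:34862602-34882100), while C3 is at chr17:57203967-57228136. Serping1 is at chr2:84765360-84775444, C3ar1 at chr6:122847140-122856157 and C5ar1 at chr7:16246743-16259540. Of the 50-base stretches of the C4b transcript, 35.2% also occur in C4a, so reads of that length cannot always be assigned to one or the other, and the values of C4b are uncertain to that extent.

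RefSeq promoter sequence (GRCm38.p6, from 250 bases before to 50 bases after the start site) was at hand for 5 of the 9 genes: C1qb, C1qc, C3, C3ar1 and C5ar1. Promoters of C1qb and C1qc are shown because both encode chains of C1q and lie next to each other, and that of C3 because it is the hub on which the pathways meet. Capitals mark matches to motifs of factors active in myeloid cells and reactive glia, searched on both strands.
C1qb, chr4:136886151-136886450, minus strand: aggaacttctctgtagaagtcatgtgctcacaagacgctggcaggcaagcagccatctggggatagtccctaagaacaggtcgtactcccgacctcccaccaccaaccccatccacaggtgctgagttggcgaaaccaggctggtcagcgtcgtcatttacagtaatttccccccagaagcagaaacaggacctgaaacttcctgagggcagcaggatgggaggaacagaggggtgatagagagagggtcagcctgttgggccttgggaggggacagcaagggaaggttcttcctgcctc
C1qc, chr4:136892865-136893164, minus strand: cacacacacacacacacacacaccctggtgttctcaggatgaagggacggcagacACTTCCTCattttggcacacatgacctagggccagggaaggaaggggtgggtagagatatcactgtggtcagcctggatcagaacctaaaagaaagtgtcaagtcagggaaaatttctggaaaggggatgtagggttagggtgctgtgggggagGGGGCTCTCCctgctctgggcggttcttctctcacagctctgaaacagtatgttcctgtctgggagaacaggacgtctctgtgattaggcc
C3, chr17:57228087-57228386, minus strand: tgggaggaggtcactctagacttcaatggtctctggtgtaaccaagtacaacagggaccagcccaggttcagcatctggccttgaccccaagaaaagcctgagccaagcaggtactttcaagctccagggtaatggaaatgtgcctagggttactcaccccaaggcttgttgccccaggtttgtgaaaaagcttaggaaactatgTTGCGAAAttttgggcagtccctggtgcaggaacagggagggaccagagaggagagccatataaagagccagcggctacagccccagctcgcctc
The C1qc promoter held the word GAGGAAGT, bound by the myeloid factor PU.1, on the opposite strand at -195 to -188 from the start site, and a match to the NF-kB consensus at -41 to -32. The C3 promoter held the C/EBP word TTGCNNAA at -45 to -38. None of the 5 promoters held the STAT word TTCNNNGAA or the interferon response word (GAAA, 2 free bases, GAAA), and the C1qb, C3ar1 and C5ar1 promoters held none of the 5 motifs. No 2 of these matches overlap. Among 32841 mouse promoters of the same length, 3.2% held the PU.1 word, 4.51% the NF-kB consensus, 10.8% the C/EBP word, 8.3% the STAT word and 3.44% the interferon response word. These matches describe letters in a window and were not tested for binding.

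In control retinas of PBS mice the C1q genes were the most abundant of the 9 with Serping1. C1qb stood at 21.5 ± 7.42 FPKM, C1qa at 16.9 ± 6.17, Serping1 at 11.2 ± 5.25 and C1qc at 9.79 ± 5.16 (mean ± SD, n = 3), and no neighbours in this order were apart by more than their spread. C4b at 2.71 ± 2.01, C3 at 1.89 ± 1.51 and Cfb at 0.950 ± 0.607 FPKM followed with overlapping ranges. The receptors were lowest, C3ar1 at 0.368 ± 0.238 and C5ar1 at 0.137 ± 0.0795 FPKM. An FPKM of C5ar1 in a control retina rested on an estimated 1.0 to 4.1 fragments, and that of Cfb in the GCV controls on 3.0 to 8.9, so ratios to these controls are imprecise.

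After IOP elevation the C1q genes rose in every mouse. In the PBS mice 3, 4 and 6, C1qa, the A chain of C1q, was at 13.4, 13.3 and 24.0 FPKM in the control eyes and at 98.1, 75.2 and 109 FPKM in the IOP-treated eyes. In the GCV mice 1, 2 and 5 it was at 15.8, 17.0 and 17.2 FPKM in the control eyes and at 137, 70.1 and 121 FPKM in the IOP-treated eyes. The lowest IOP-treated retina, that of mouse 2, was thus well above the highest control. C1qb, the B chain, was at 14.5, 20.6 and 29.3 FPKM in the controls of mice 3, 4 and 6 and at 149, 89.5 and 236 FPKM in their IOP-treated eyes. The GCV mice had it at 18.8, 21.6 and 21.9 FPKM in the controls of mice 1, 2 and 5 and at 169, 91.9 and 201 FPKM after IOP. Mouse 4 and mouse 2 gave the lowest C1qb of their treatment after IOP, and no control reached them. C1qc, the C chain, was at 6.83, 6.80 and 15.8 FPKM in the PBS controls and at 76.1, 42.6 and 50.6 FPKM in the IOP-treated eyes of the same mice. With GCV it was at 9.36, 10.4 and 13.6 FPKM in controls and at 96.6, 49.6 and 92.5 FPKM after IOP. The controls of mouse 6 were the highest of all controls for each of the 3 chains. Per mouse the IOP-treated eye held 4.12 to 8.62 times the C1qa, 4.25 to 10.3 times the C1qb and 3.21 to 11.1 times the C1qc of the control eye.

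**Figure D1:**
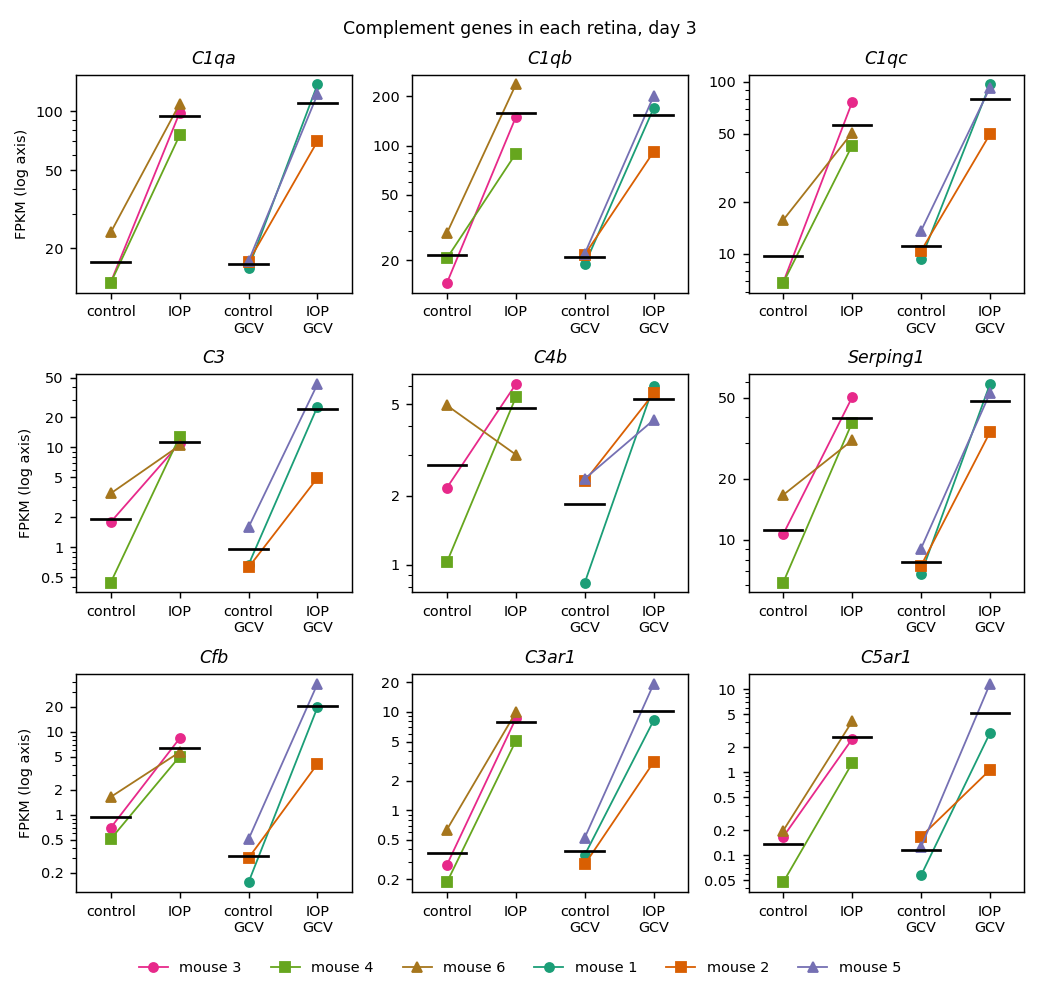
FPKM of the 9 complement genes in each of the 12 retinas on a log axis, with a line joining the eyes of a mouse and a black bar for the group mean (n = 3). The 6 IOP-treated retinas lay above the 6 controls for every gene except C4b, where the line of mouse 6 falls from 4.93 to 3.01 FPKM.

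The products of the 3 C1q genes join in a fixed proportion, and the ratios of their FPKM were compared across groups. The ratio of C1qb to C1qa was 1.09 to 1.55 in PBS controls and 1.19 to 2.17 after IOP, and with GCV it was 1.19 to 1.28 in controls and 1.24 to 1.66 after IOP. The ratio of C1qc to C1qa was 0.51 to 0.655 in PBS controls and 0.466 to 0.776 after IOP, and 0.591 to 0.793 and 0.707 to 0.761 with GCV. The ranges of control and IOP-treated retinas overlapped in each case, while the levels of the single genes did not.

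C3, the central protein of the cascade, was at 1.78, 0.441 and 3.46 FPKM in the controls of mice 3, 4 and 6 and at 11.0, 12.8 and 10.5 FPKM in their IOP-treated eyes. In the GCV mice 1, 2 and 5 it was at 0.667, 0.626 and 1.58 FPKM in controls and at 25.6, 4.94 and 43.1 FPKM after IOP. The IOP-treated PBS retinas lay close to each other, whereas those with GCV were spread from below to well above them. Cfb, factor B of the alternative pathway, was at 0.698, 0.511 and 1.64 FPKM in PBS controls and at 8.35, 5.05 and 5.70 FPKM after IOP. In GCV mice it was at 0.154, 0.302 and 0.508 FPKM in controls and at 19.7, 4.11 and 37.9 FPKM after IOP. The GCV controls were below the PBS controls, by a margin of 0.508 against 0.511 FPKM between the nearest. Cfb was the only 1 of the 9 genes with such an order, which 5.14% of all genes showed. The IOP-treated eyes with GCV showed the same order as C3, mouse 5 highest and mouse 2 lowest. The ratio of Cfb to C3 lay at 0.771 to 0.88 in these 3 retinas and at 0.395 to 0.762 in the IOP-treated PBS retinas. It lay at 0.392 to 1.16 in PBS controls, which spans both of these ranges, and at 0.231 to 0.482 in GCV controls, and no difference in the ratio was tested.

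C4b, the classical pathway component cleaved by C1, changed least. It was at 2.16, 1.03 and 4.93 FPKM in the controls of mice 3, 4 and 6 and at 6.10, 5.35 and 3.01 FPKM in their IOP-treated eyes. With GCV it was at 0.838, 2.31 and 2.37 FPKM in the controls of mice 1, 2 and 5 and at 5.99, 5.56 and 4.26 FPKM after IOP. The IOP-treated eye of mouse 6, the library with the fewest fragments, was the only one of 6 below its own control for any of the 9 genes, and PBS controls and IOP-treated retinas overlapped. The control eye of mouse 6 was the highest control for all 9 genes, and its fibroblast and pericyte markers summed to 32.6 FPKM against 9.09 to 11.8 in the other controls. It was also the highest control for the summed markers of reactive glia (283 against 143 to 200 FPKM), microglia (65.6 against 45.8 to 61.1 FPKM) and pigment epithelium with ciliary body (245 against 15.7 to 229 FPKM). Their part in the complement values was not tested. C4a, the paralog, stayed at 0 to 0.316 FPKM in all libraries.

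Serping1, the C1 inhibitor, was at 10.7, 6.17 and 16.6 FPKM in the controls of mice 3, 4 and 6 and at 50.1, 37.7 and 30.8 FPKM in their IOP-treated eyes. In GCV mice it was at 6.80, 7.46 and 9.07 FPKM in the controls of mice 1, 2 and 5 and at 58.2, 33.8 and 52.6 FPKM after IOP. No control overlapped the IOP-treated retinas, although mouse 6 rose by only 1.85 times.

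The receptors for the anaphylatoxins started near the limit of detection. C3ar1, the receptor for the fragment shed from C3, was at 0.280, 0.186 and 0.637 FPKM in the PBS controls of mice 3, 4 and 6 and at 8.57, 5.09 and 9.91 FPKM after IOP. With GCV it was at 0.353, 0.283 and 0.528 FPKM in the controls of mice 1, 2 and 5 and at 8.20, 3.09 and 19.3 FPKM after IOP. Each IOP-treated eye held 10.9 to 36.5 times the C3ar1 of its fellow eye. C5ar1, the receptor for the fragment shed from C5, was at 0.167, 0.0474 and 0.198 FPKM in the PBS controls and at 2.51, 1.28 and 4.09 FPKM after IOP. With GCV it was at 0.0572, 0.168 and 0.126 FPKM in controls and at 2.96, 1.07 and 11.6 FPKM after IOP. Mouse 5 was highest and mouse 2 lowest of all IOP-treated retinas for both receptors. The ligand gene of C5ar1, Hc, which encodes C5, was listed at 0 in all 12 libraries.

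Changes were tested as log2(FPKM + 1) with limma over all 18509 rows above 0 in at least 1 library, and a gene was called at a Benjamini-Hochberg adjusted p under 0.05. This scale understates the change of genes near or below 1 FPKM, here Cfb, C3ar1 and C5ar1, and C3 and C4b in some controls. Over the 6 mice, all 9 genes were called higher in IOP-treated retinas, where 6.76% of all genes were called higher. That share was 3.56% to 4.29% when any 1 of the 6 controls was left out and 10.9% when the treated eye of mouse 4 was dropped. Of the 9 genes, 8 or 9 were called in each of these refits. The median log2 fold change of the 9 was 2.58, against 0.01 over all genes tested. Read as a rank, between 96.1% (C4b) and 99.6% (C3) of all genes had a smaller log2 fold change than the complement gene.

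Among the classical pathway genes the log2 fold changes over the 6 mice were 2.52 for C1qa (SE 0.19, adjusted p = 0.0001734), 2.77 for C1qb (SE 0.27, adjusted p = 0.0004168) and 2.58 for C1qc (SE 0.25, adjusted p = 0.0004168). Their 95% intervals overlapped, at 2.09 to 2.94, 2.17 to 3.36 and 2.03 to 3.13. C4b had a log2 fold change of 0.97 (SE 0.28, adjusted p = 0.04824) and was no longer called with the mouse as a block (adjusted p = 0.109). Of 12 refits with a library removed, 10 did not call it, and it was called only without the control of mouse 6 (adjusted p = 0.0253) or the IOP-treated retina of mouse 6 (adjusted p = 0.04209).

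For the shared and alternative pathway, C3 rose by a log2 fold change of 2.78 (SE 0.45, adjusted p = 0.005471) and Cfb by 2.77 (SE 0.42, adjusted p = 0.00341). Serping1, the inhibitor, rose by 2.13 (SE 0.22, adjusted p = 0.0006264). Of the receptors, C3ar1 rose by 2.69 (SE 0.33, adjusted p = 0.001267) and C5ar1 by 1.84 (SE 0.37, adjusted p = 0.01519). These sizes depend on the pseudocount: with 0.1 in place of 1, the log2 fold changes were 3.98 for Cfb, 4.11 for C3ar1, 3.74 for C5ar1 and 3.54 for C3, all above the 2.82 of C1qb. The 8 genes other than C4b stayed called with the mouse as a block, where 4.83% of all genes were called higher, and whichever of the 12 libraries was removed.

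Fewer calls were made within each treatment. Without GCV, 5 of the 9 genes were called higher (C1qa, C1qb, C1qc, Serping1 and C3ar1), where 1.42% of all genes were, and the median log2 fold change of the 9 was 2.24. With the mouse as a block only C1qa (adjusted p = 0.02956) and C1qb (adjusted p = 0.03268) were called, where 0.389% of all genes were, and C1qc (adjusted p = 0.05277), Serping1 (adjusted p = 0.08446) and C3ar1 (adjusted p = 0.05588) were not. C3 (log2 fold change 2.24, adjusted p = 0.1315), Cfb (1.93, adjusted p = 0.1526), C5ar1 (1.60, adjusted p = 0.1788) and C4b (0.75, adjusted p = 0.32) did not pass in the PBS mice. Leaving out the control of mouse 3 or that of mouse 4 left 1 call, that of C1qa, where 0.125% and 0.141% of all genes were called higher. Leaving out the IOP-treated retina of mouse 3 left 3 calls (0.582% of all genes) and leaving out the control of mouse 6 left 4 (0.558%). Without the IOP-treated retina of mouse 4 there were 5 calls, where the share of all genes was 5.25%.

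With GCV, 7 of the 9 were called higher (C1qa, C1qb, C1qc, Serping1, C3ar1, C3 and Cfb), where 1.65% of all genes were, and the median log2 fold change was 2.69. Cfb had the largest estimate at 3.61 (SE 0.59, adjusted p = 0.01475), followed by C3 at 3.32 (SE 0.64, adjusted p = 0.03084), and C3 was not called with the mouse as a block (adjusted p = 0.05843), where 0.751% of all genes were called higher. C5ar1 (2.07, adjusted p = 0.08128) and C4b (1.19, adjusted p = 0.1494) did not pass. Leaving out any 1 of the 3 GCV controls left 4 calls, those of the C1q genes and Serping1, where 0.401% to 0.482% of all genes were called higher. Without the IOP-treated retina of mouse 2 there were 8 calls, where 3.68% of all genes were called higher.

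The FPKM values themselves were also compared by overlap. All 3 IOP-treated retinas lay above all 3 controls for 8 of the 9 genes without GCV, where 11.7% of all genes did so, and for 9 of 9 with GCV, where 14.5% did so. All 6 lay above all 6 controls for 8 of the 9, against 5.47% of all genes. The IOP-treated eye was above its fellow eye in 6 of 6 mice for 8 of the 9, against 10.7% of all genes. C4b was the exception in each of these comparisons other than that with GCV.

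**Figure D2:**
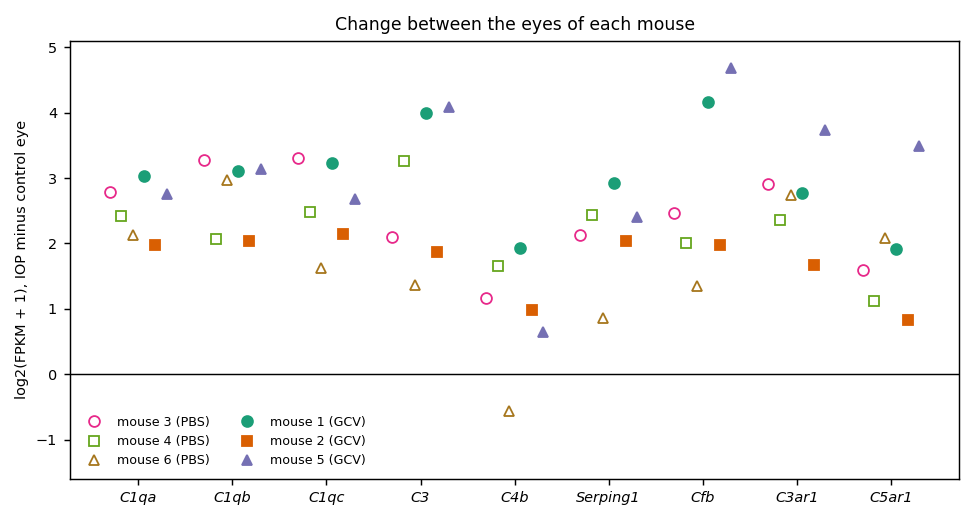
Difference in log2(FPKM + 1) between the IOP-treated and the control eye of each mouse, for the 9 complement genes (open symbols PBS, filled symbols GCV). C1qa differed by 1.98 to 3.03 over the mice and Cfb by 1.34 to 4.69, and C4b of mouse 6 is the only point below 0 (-0.56).

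Mice differed in the size of the change more for some genes than for others. The difference in log2(FPKM + 1) between the eyes of a mouse had an SD over the 6 mice of 0.41 for C1qa, 0.56 for C1qb and 0.64 for C1qc, but 1.16 for C3 and 1.34 for Cfb. Serping1 (0.70) and C3ar1 (0.67) were close to the C1q genes, while C4b (0.88) and C5ar1 (0.94) lay between. The median difference over the 9 genes was 3.03 in mouse 1, 1.97 in mouse 2 and 3.14 in mouse 5, all with GCV. In the PBS mice it was 2.46 in mouse 3, 2.36 in mouse 4 and 1.62 in mouse 6. Mouse 2 with GCV and mouse 6 without it had the smallest change in all 9 genes between them, mouse 6 in 5 and mouse 2 in 4. On the same scale the largest differences were those of mouse 5 for C3, Cfb, C3ar1 and C5ar1, of mouse 1 for C1qa, C4b and Serping1, and of mouse 3 for C1qb and C1qc. As a ratio of FPKM, C3 and Cfb changed most in mouse 1, with C3 at 38.4 times its control against 27.2 times in mouse 5.

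The question whether GCV altered the rise was tested as the difference between the IOP effects with and without GCV. None of the 9 genes was called in this interaction, where 0 of 18509 genes (0%) were. At an unadjusted p under 0.05 none of the 9 passed either, against 358 genes (1.93%). The estimates are wide. For C1qa the log2 fold change with GCV was larger by 0.14 (95% interval -0.72 to 1.00), for C1qb it differed by -0.01 (-1.20 to 1.18) and for C1qc by 0.22 (-0.89 to 1.33). For the receptors the differences were 0.06 (-1.42 to 1.53, C3ar1) and 0.47 (-1.19 to 2.13, C5ar1), and for Serping1 and C4b they were 0.65 (-0.34 to 1.65) and 0.44 (-0.80 to 1.67). C3 and Cfb had the largest, 1.08 (-0.94 to 3.10) and 1.68 (-0.18 to 3.53, unadjusted p = 0.07151, adjusted p = 0.997). For C1qa, the narrowest of these intervals, a fall of the IOP effect by more than 0.72 on the log2 scale lay outside the interval, while for Cfb a rise by up to 3.53 lay inside it.

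**Figure D3:**
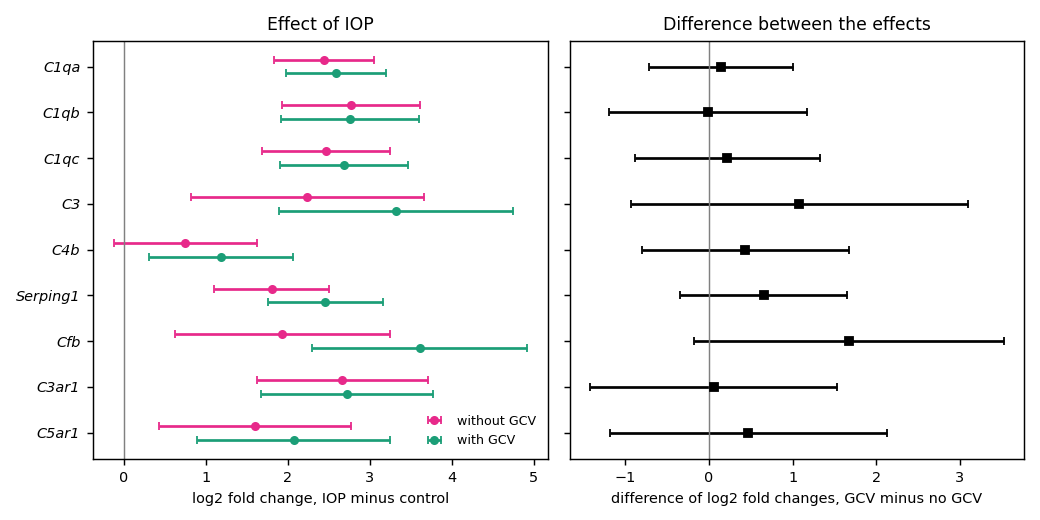
Log2 fold change of the 9 complement genes between IOP-treated and control retinas without and with GCV (left) and the difference between both (right), with 95% intervals from limma. Each interval of the difference includes 0, from C1qb at -0.01 to Cfb at 1.68.

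Set directly beside each other, IOP-treated retinas with GCV and with PBS did not differ by call in any of the 9 genes, nor did the controls, and 0% of all genes were called in either comparison. At an unadjusted p under 0.05 these counts were 0 of the 9 in both, against 774 genes (4.18%) in IOP-treated and 295 genes (1.59%) in control retinas. The median difference of the 9 was 0.27 in IOP-treated retinas and -0.02 in controls. Cfb, chosen here after its values were seen, differed by 1.15 in IOP-treated retinas (95% interval -0.16 to 2.46, adjusted p = 0.8191) and by -0.53 in controls (-1.84 to 0.78, adjusted p = 1).

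Each of the 9 genes was also set against 12909 genes that averaged 1 FPKM or more, to name the 2 with the most similar pattern over the 12 libraries. Likeness was the root mean square difference of the centred log2 values. C1qa and C1qc were each other's nearest (0.23), with Lgals3bp next for C1qa (0.26) and Pld4 next for C1qc (0.23). For C1qb these were Clec7a (0.14), a receptor for fungal glucans, and Trem2 (0.25), a lipid receptor of microglia. For C3 they were Cfb (0.33) and Ms4a6d (0.42), and for Cfb they were C3 and Unc93b1 (0.35). Serping1 was nearest to Lgals3bp (0.24) and Fcrls (0.31), C3ar1 to Ifi30 (0.15) and H2-D1 (0.18), and C5ar1 to Lrrc25 (0.18) and Myo1f (0.19). For C4b they were Zcchc24 (0.34) and Gbp6 (0.38).

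A list of 52 other complement genes placed the 9 in their pathway. Of these 50 had a row, while the names C1s and Gpr77 had none. Of the 50, 41 were above 0 in at least 1 library. The other 9 were listed at 0 in all libraries, among them Hc, C6 and C9 of the terminal pathway and both mannose-binding lectins, Mbl1 and Mbl2. Over the 6 mice 9 of the 41 were called higher and 1 lower, where 6.76% and 5.44% of all genes were called, and the median log2 fold change of the 41 was 0.03. Of 13 genes for classical and lectin initiation, 2 were called higher, the proteases of the C1 complex C1ra (1.44, SE 0.21, adjusted p = 0.002795) and C1s1 (1.05, SE 0.25, adjusted p = 0.02916). C2, the partner of C4 in the C3-cleaving enzyme, was not called (0.36, adjusted p = 0.4419).

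**Figure D4:**
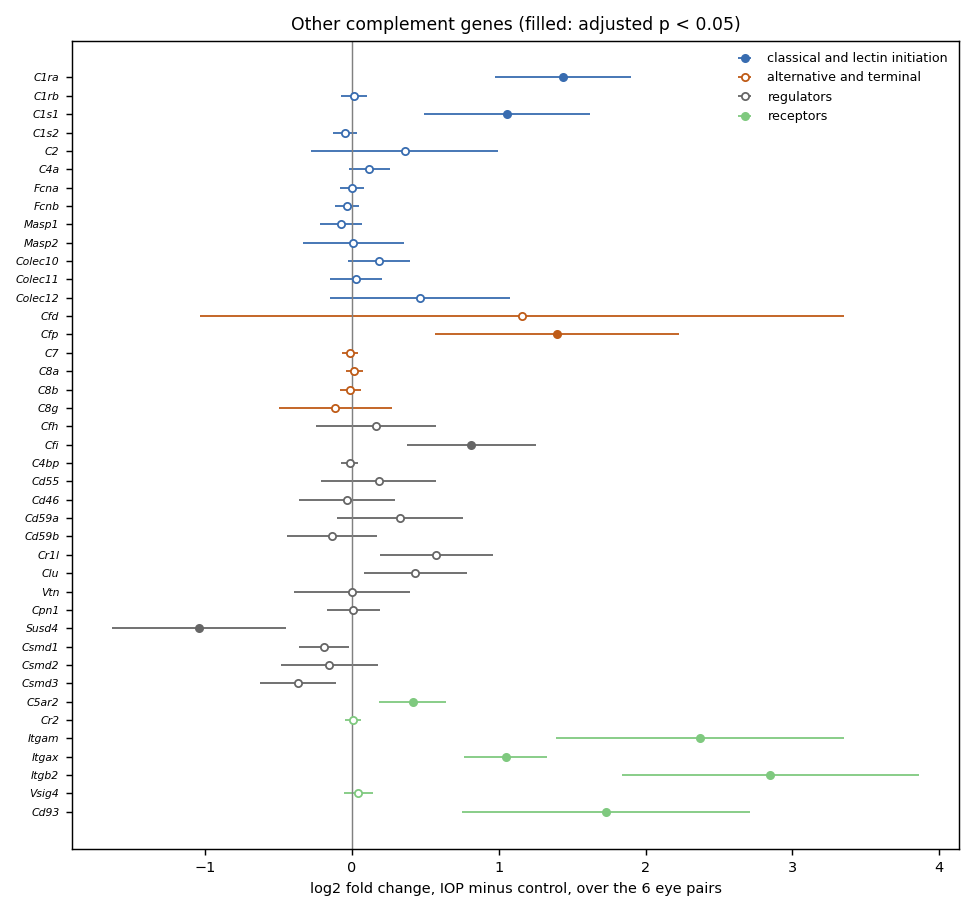
Log2 fold change with 95% interval of 41 other complement genes between IOP-treated and control retinas over the 6 mice, grouped by role. Filled points are the 9 genes called higher, from C5ar2 at 0.41 to Itgb2 at 2.85, and Susd4, called lower at -1.04.

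Of 6 genes for the alternative and terminal pathways, only Cfp was called higher (1.40, SE 0.37, adjusted p = 0.03996), which encodes properdin, the protein that stabilizes the alternative pathway enzyme. Cfd, factor D, was at 110 FPKM in the IOP-treated retina of mouse 3 and at 0 to 0.115 FPKM in the other 11 libraries. The same retina had the highest sum of fibroblast and pericyte markers, at 82.1 FPKM against 8.55 to 32.6 elsewhere, and Dcn at 63.9 FPKM. It also had the highest sums of blood markers (524 against 25.6 to 216 FPKM) and of pigment epithelium and ciliary body markers (266 against 15.7 to 245 FPKM). The part of these tissues in the Cfd value was not tested.

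Of 15 regulators, Cfi, the protease that inactivates cleaved C3 and C4, was called higher (0.81, SE 0.20, adjusted p = 0.03038). Susd4, a membrane protein that inhibits complement, was called lower (-1.04, SE 0.27, adjusted p = 0.03491), from 12.6 to 21.1 FPKM in controls to 2.93 to 11.9 FPKM after IOP. A count of 1 of 15 in each direction is near the share of all genes called, 6.76% higher and 5.44% lower. The most abundant of the list, Vtn (0.00, adjusted p = 0.9984), Clu (0.43, adjusted p = 0.09636) and Cd59a (0.33, adjusted p = 0.2855), did not pass. They encode vitronectin, clusterin and the membrane inhibitor CD59, which act on the terminal complex, and their means over the 12 libraries were 820 FPKM, 692 FPKM and 78.8 FPKM.

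Of 7 receptor genes 5 were called higher. Itgb2 (2.85, SE 0.46, adjusted p = 0.004951), Itgam (2.37, SE 0.44, adjusted p = 0.01055) and Itgax (1.05, SE 0.13, adjusted p = 0.001258) encode the subunits of complement receptors for cleaved C3 on myeloid cells. Cd93 (1.73, SE 0.44, adjusted p = 0.03491), a lectin-like receptor once described as a C1q receptor, and C5ar2 (0.41, SE 0.10, adjusted p = 0.03116), the other receptor for the C5 fragment, also passed. C5ar2 was near the limit of detection, at 0 to 0.0702 FPKM in controls and 0.105 to 0.765 FPKM after IOP. With the mouse as a block 7 of the 10 calls held, and C1s1 (adjusted p = 0.05356), Cfp (adjusted p = 0.06185) and Cfi (adjusted p = 0.0651) were lost. C1ra, Itgam, Itgax and Itgb2 were called whichever of the 12 libraries was removed, and the remaining 6 in 2 to 7 of these refits.

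Whole retinas mix cell types, and in such bulk RNA more cells of a type and more RNA per cell cannot be told apart. The summed FPKM of 12 microglia markers was 45.8 to 65.6 in PBS controls and 155 to 252 after IOP, and with GCV it was 53.1 to 61.1 in controls and 121 to 432 after IOP. Over the 6 mice 7 of the 12 were called higher and 1 lower, where 6.76% and 5.44% of all genes were. With the mouse as a block, where Csf1r was lost (adjusted p = 0.05203), 6 were called higher (4.83% of all genes) and 1 lower. Tyrobp (3.17), Trem2 (2.60), Aif1 (2.18) and Fcrls (1.97) were the highest of these by log2 fold change, whereas P2ry12 (0.28, adjusted p = 0.1964), Tmem119 (0.54, adjusted p = 0.09857) and Sall1 (-0.03, adjusted p = 0.8888), which define resting microglia, did not pass and Siglech fell by 0.56 (adjusted p = 0.01447). None of the 12 was at 0 in a whole group. The part of these cells in the complement values was not tested.

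**Figure D5:**
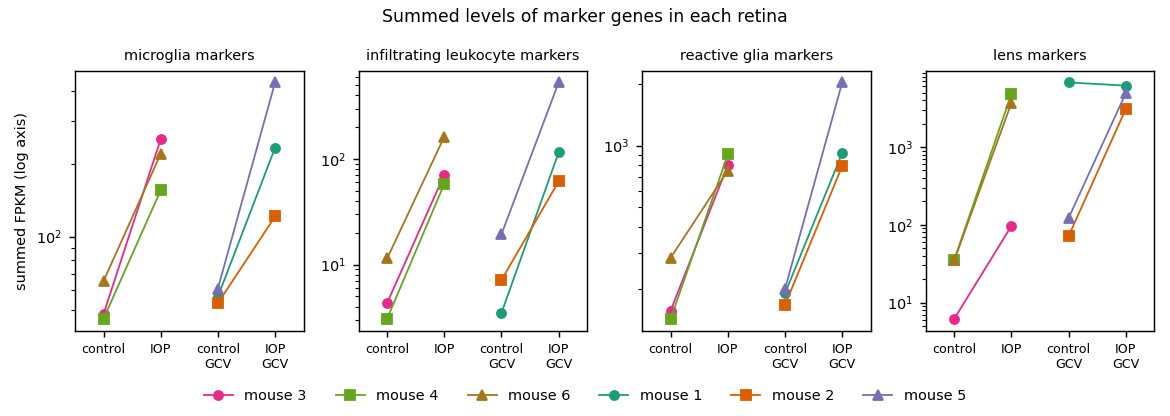
Summed FPKM of marker genes in each retina on log axes, for microglia, infiltrating leukocytes, reactive glia and lens, with a line joining the eyes of a mouse. In mouse 1 the lens sum is high in both eyes (6756 and 6147 FPKM), and in mouse 3 it is low in both (6.18 and 96.5 FPKM).

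The summed FPKM of 13 markers of infiltrating leukocytes was 3.07 to 11.4 in PBS controls and 58.1 to 162 after IOP, and 3.48 to 19.4 and 61.3 to 530 with GCV. Of these 8 were called higher, where 6.76% of all genes were. Among them were S100a8 (3.63), S100a9 (2.73), Csf3r (1.73) and Ccr2 (2.39), the last a marker of monocytes. S100a8 held 267 of the 530 FPKM in the IOP-treated retina of mouse 5. Ly6c2 was at 0 in all GCV controls and Chil3 at 0 in all controls, while Cd3e of T cells stayed at or below 0.271 FPKM in all libraries and was at 0 in all GCV controls. The IOP-treated retina of mouse 5 had the highest sums of both lists and the highest C3, Cfb, C3ar1 and C5ar1. That of mouse 2 had the lowest microglia sum and the lowest C3, Cfb, C3ar1 and C5ar1. In mouse 5, Tyrobp held 249 of the 432 FPKM of microglia markers, while P2ry12 (2.20 FPKM) was the lowest of the IOP-treated retinas. Its Tmem119 (1.85 FPKM) and Siglech (0.255 FPKM) lay within the range of the other IOP-treated retinas. The retina of mouse 5 also had the highest sum of reactive glia markers, 2033 FPKM against 755 to 920 in the other IOP-treated retinas. Its sums of Mueller glia and astrocyte markers (556 FPKM, next 566) and of neuron markers (18530 FPKM, next 18830) were the lowest of the 12 libraries. The highest C1qb was in mouse 6 and the highest C1qa and C1qc in mouse 1. The part of infiltrating cells, glia or neurons in these values was not tested.

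All 8 markers of reactive glia were called higher, where 6.76% of all genes were. Their sum was 143 to 283 FPKM in PBS controls and 755 to 904 FPKM after IOP. With GCV it was 167 to 200 FPKM in controls and 795 to 2033 FPKM after IOP. Of 8 markers of Mueller glia and astrocytes 1 was called higher (Gfap) and 2 lower, and of 11 markers of retinal neurons 5 were called lower and none higher, where 5.44% of all genes were called lower. With the mouse as a block 1 of the Mueller glia and astrocyte markers and 3 of the neuron markers were called lower. Of the markers of fibroblasts and pericytes, endothelium, pigment epithelium with ciliary body, and blood, 0 of 7, 0 of 5, 0 of 6 and 0 of 6 were called. Their part in the complement values was not tested.

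The summed FPKM of 8 lens markers was 6.18 to 35.5 in PBS controls and 96.5 to 4819 after IOP, and 71.5 to 6756 and 3086 to 6147 with GCV. Over the 6 mice 5 of the 8 were called higher, where 6.76% of all genes were, and 6 with the mouse as a block, where 4.83% were. Within either treatment limma called 0 of 8. There 6 without GCV and 3 with GCV had an unadjusted p under 0.05, a threshold for which the share of all genes was not taken. The control of mouse 1 held 6756 FPKM of lens markers and 15.8 FPKM of C1qa, within the range of the other controls. The IOP-treated retina of mouse 3 held 96.5 FPKM of lens markers and 98.1 FPKM of C1qa, within the range of the other IOP-treated retinas. In the 5 mice other than mouse 1 the lens sum and C1qa were both higher in the IOP-treated eye, and the part of lens tissue there was not tested. With the shallow library of mouse 6 removed, all 9 genes stayed called. The 8 other than C4b stayed called without the control of mouse 1 or the IOP-treated retina of mouse 3. Among controls the former had the highest lens sum, and among IOP-treated retinas the latter had the lowest. Removing either ties the lens sum closer to IOP, so these refits cannot show the part of lens tissue.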

How the data were processed

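Polyadenylated RNA of 12 retinas was sequenced as stranded TruSeq libraries. The authors deposited 1 table of FPKM values for 24340 rows named by gene symbol. No source names the unit, and it was inferred from the low values. The submitters' processing notes name TopHat2, Bowtie2, Cufflinks, Cuffdiff and mm10 without versions, while the study's methods name HOMER counts over exons of RefSeq genes, and which step made the table is not given in the sources used here. Scaling between libraries is not stated.

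Fragments per library were estimated from values of 1904 genes with transcripts of at least 1500 bases, after 170 bases were taken off the length, in a search from 2000000 to 10000000 fragments. The share of low values within 0.15 of a whole number was 79.6% to 87.2%. At these depths a value below 1 FPKM can rest on few fragments, depending on the length of the transcript. In the control of mouse 4, C5ar1 at 0.0474 FPKM rested on an estimated 1.0 fragments and C3 at 0.441 FPKM on 20.

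The test was limma (version 3.58.1, R version 4.3.3) on log2(FPKM + 1), with a mean for each of 4 groups, a variance trend and Benjamini-Hochberg adjustment over 18509 rows. The study's methods name no test for the RNA-seq comparison, while the processing notes list Cuffdiff. The same number marks the eyes of 1 mouse, so the mouse was used as a block in an alternative. Deviations of both eyes from their group means had correlations of -0.117 to 0.388 over the mice. The script was first tested on simulated data in which 200 genes differed. Other alternatives were a pseudocount of 0.1, at least 1 FPKM in 3 libraries, only the groups compared, no trend, median-ratio scaling, quantile normalization, and each library left out.

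The members, lists and alternatives were chosen with earlier results of these data known. Named beside the members were genes of the pathway list that were called or most abundant, the 2 nearest genes of each member, and markers. Positions, transcripts and promoters came from RefSeq and GENCODE on GRCm38. Other software was Python (3.11.15) with matplotlib 3.10.9, numpy 2.4.6 and pandas 2.3.3. Values of some marker genes are not reported here.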

Additional observations from a re-analysis of the deposited data

Results flagged for a closer look

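Cd59b, a membrane inhibitor of the terminal complex, was lower in the IOP-treated eye of each PBS mouse and higher in that of each GCV mouse, and neither change was called (limma log2 fold change -0.52, adjusted p = 0.2132, and 0.25, adjusted p = 0.5381). The difference between them was 0.78 (unadjusted p = 0.0178, adjusted p = 0.997). It went from 1.03, 0.522 and 0.364 FPKM in the controls of mice 3, 4 and 6 to 0.199, 0.181 and 0 FPKM after IOP, and with GCV from 0, 0.414 and 0 FPKM in mice 1, 2 and 5 to 0.196, 0.690 and 0.182 FPKM.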

How the results depend on the processing

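In the IOP comparisons none of the log2 fold changes of the 9 genes changed sign under any alternative that was run. Over both treatments 8 or 9 of the 9 were called under each of them. With GCV the count of 7 called genes became 4 when only the groups compared were fitted, and 4 to 8 when a library was left out. Without GCV the count of 5 became 2 with the mouse as a block, and 1 to 5 when a library was left out. Pairing the eyes by mouse changed no call of the 9 genes other than those given with the results. The comparisons of GCV with PBS between mice could not be fitted with that block. The 10 calls among other complement genes became 4 to 14 when a library was left out. They were 4 without the control of mouse 3, the control of mouse 4 or the GCV control of mouse 2, 5 without the control of mouse 6, the IOP-treated retina of mouse 3 or the GCV control of mouse 1 or mouse 5, and 6 when the treated eye of mouse 5 was dropped. Calls over all genes moved as well. With every library kept, 1252 of 18509 genes were called higher and 1006 lower. The refits with 4 to 6 calls among other complement genes had 830 to 1282 calls over all genes, in both directions together. The most, 4515 of 18442, came when the treated eye of mouse 4 was dropped. When a library of a group of 3 was left out, the remaining samples of that group were assumed to vary like the other groups.

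Some of the interaction estimates changed sign. That of C1qb became 0.0617 with quantile normalization and that of C3ar1 became -0.0844 with a pseudocount of 0.1. With a library left out they ranged from -0.12 to 0.43 for C1qa, -0.36 to 0.33 for C1qb, -0.15 to 0.52 for C1qc, -0.52 to 0.64 for C3ar1 and -0.24 to 1.06 for C5ar1. The cause was not tested. With a pseudocount of 0.1, C5ar1 was called in both treatments (adjusted p = 0.0369 without and 0.0167 with GCV). With only the groups compared, Cfb was called without GCV (adjusted p = 0.03747) and Serping1 was not (adjusted p = 0.07048).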
